A study of Homo sapiens with 16 samples.

Results

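The hnRNP genes followed here were HNRNPA1, HNRNPA0, HNRNPD, HNRNPDL, HNRNPK, HNRNPH1, HNRNPF, HNRNPU, HNRNPM and HNRNPL, taken by gene symbol from a table of 60564 genes. All 10 of 10 were found, 1 row each. The table held T-to-C conversion rates from SLAM-seq of THP-1, an established line of human monocytic leukaemia. SLAM-seq marks new RNA with 4-thiouridine (4sU), which is read as T-to-C conversions in sequencing. The 8 groups were wild-type control and ALKBH5 knockdown (A5-KD) cells at 0, 1.5, 4.5 and 7.5 h, with 2 libraries each, 16 in all. Every group received 100 µM 4sU for 1 h before a chase in 10 mM uridine, so no library without label was used here. A background rate of conversions without label could therefore not be measured or taken off. Any constant background would flatten slopes, lengthen halving times and raise the percentage of the 0 h rate left at 7.5 h. The labels do not say how the knockdown was made, whether it is 1 clone, or whether replicates came from separate cultures. The p-values then measure only the spread between these libraries, which may be technical.

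Heterogeneous nuclear ribonucleoproteins (hnRNPs) are abundant nuclear proteins that coat newly made RNA and act in splicing, export, translation and decay. Several bind their own transcripts and adjust their own level through alternative splicing coupled to nonsense-mediated decay (NMD), which destroys mRNAs with an early stop codon. ALKBH5 removes N6-methyladenosine (m6A) from RNA, a mark laid down mostly in the sequence context GGACU and its variants. The rate measures the labelled part of a gene's RNA and gives no abundance. It falls as unlabelled copies are made, or if labelled copies decay faster than unlabelled ones. Decay that removes both alike leaves it unchanged, so a loss of label here means only a falling rate.

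The m6A context was looked for in the coding sequence of the GENCODE 29 principal transcript of each gene, because ALKBH5 acts on that mark. GGACT, written as DNA and searched on the transcribed strand only, was present in 8 of the 10 coding sequences, against 72.1% of 19677 protein-coding genes. In coding sequence HNRNPU and HNRNPM held none, and HNRNPL held the most, with 3. Over the whole principal transcript HNRNPA1 and HNRNPA0 held 8 each, HNRNPU 4, HNRNPL 3 and HNRNPM 0. No count over other genes was made for whole transcripts. In the last 300 coding bases, near the stop codon, GGACT was present in 1 of 10 members (HNRNPL) and in 28% of 19066 genes. The windows below are shown because they belong to the related genes compared further on and to HNRNPDL and HNRNPK. HNRNPDL had the largest genotype effect of the members and HNRNPK the smallest. The window of HNRNPL is the match near a stop codon. Each is read 5′ to 3′ along the transcript, and capitals mark the GGACT match.
HNRNPF upstream match: gtgcggcttcgaGGACTcccatttggatg
HNRNPH1 upstream match: gtacggcttagaGGACTtccctttggatg
HNRNPF downstream match: atgaccggcccgGGACTgccaggaggtac
HNRNPH1 downstream match: aacattgccggtGGACTtccaggggagga
HNRNPA0 second match: tgggactctgacGGACTgcgtggtggtgg
HNRNPA1 match: gggaacgctcacGGACTgtgtggtaatga
HNRNPD match: gaaagatctgaaGGACTacttttccaaat
HNRNPDL match: ctgccgcgacccGGACTgcgcgccagcac
HNRNPK match: tgatgaaacttgGGACTctgcaatagata
HNRNPL match near the stop codon: cgcagctcctctGGACTgctggagtggga

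The upstream windows of HNRNPF (chr10:43387520-43387548, minus strand) and HNRNPH1 (chr5:179620924-179620952, minus strand) shared 25 of 29 bases. Their downstream windows, at chr10:43387228-43387256 and chr5:179619354-179619382, shared 15 of 29. The second window of HNRNPA0 (chr5:137753949-137753977, minus strand) shared 21 of 29 with that of HNRNPA1, which crosses an exon junction. The first window of HNRNPA0, not shown above, shared 15 of 29 with it. The windows of HNRNPD (chr4:82359572-82359600, minus strand) and HNRNPDL (chr4:82429358-82429386) shared 8 of 29. In every pair 5 of the shared bases are the motif itself. The other windows lie at chr9:83971314-83971342 for HNRNPK and chr19:38837446-38837474 for HNRNPL. All but that of HNRNPA1 are on the minus strand and within 1 coding exon. Coordinates are on GRCh38, the build the submitters' processing notes name as hg38. A match is a description of the letters and not a mapped m6A site.

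Library medians over the 16241 genes tested ran from 0.25% to 0.556% in control and from 0.532% to 1.19% in knockdown, and 2.39% to 12.9% of tested genes were listed at 0 per library. No library of any member was listed at 0. ALKBH5 rates ranged from 0.0982% to 0.812% in control and from 0.108% to 3.31% in knockdown, which carries no abundance and so does not test the knockdown. Of 10 monocytic markers 9 had a CPM of at least 1, with a summed CPM of 1467 led by LYZ. The 5 lymphoid markers summed to 6.01, the 4 erythroid ones to 1.32 and the 5 epithelial or kidney ones to 6.72. That CPM column names no library, so it could not be split by group. The number of sequenced T bases behind each rate is unknown.

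Label in 7 of the 10 mRNAs showed no called loss over the chase, while HNRNPF, HNRNPA0 and HNRNPH1 lost label in both genotypes. Over all tested genes 34.4% fell in control and 37.9% in knockdown, so 3 of 10 is near the background share. HNRNPF fell to 37.3% of its 0 h rate by 7.5 h in control and to 24% in knockdown. HNRNPA0 fell to 26% and 48.1%, and HNRNPH1 to 63% and 70.8%. The median over tested genes was 53.8% in control and 50.6% in knockdown. The other 7 members ended between 94.3% and 125% in control and between 81.6% and 133% in knockdown.

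**Figure D1:**
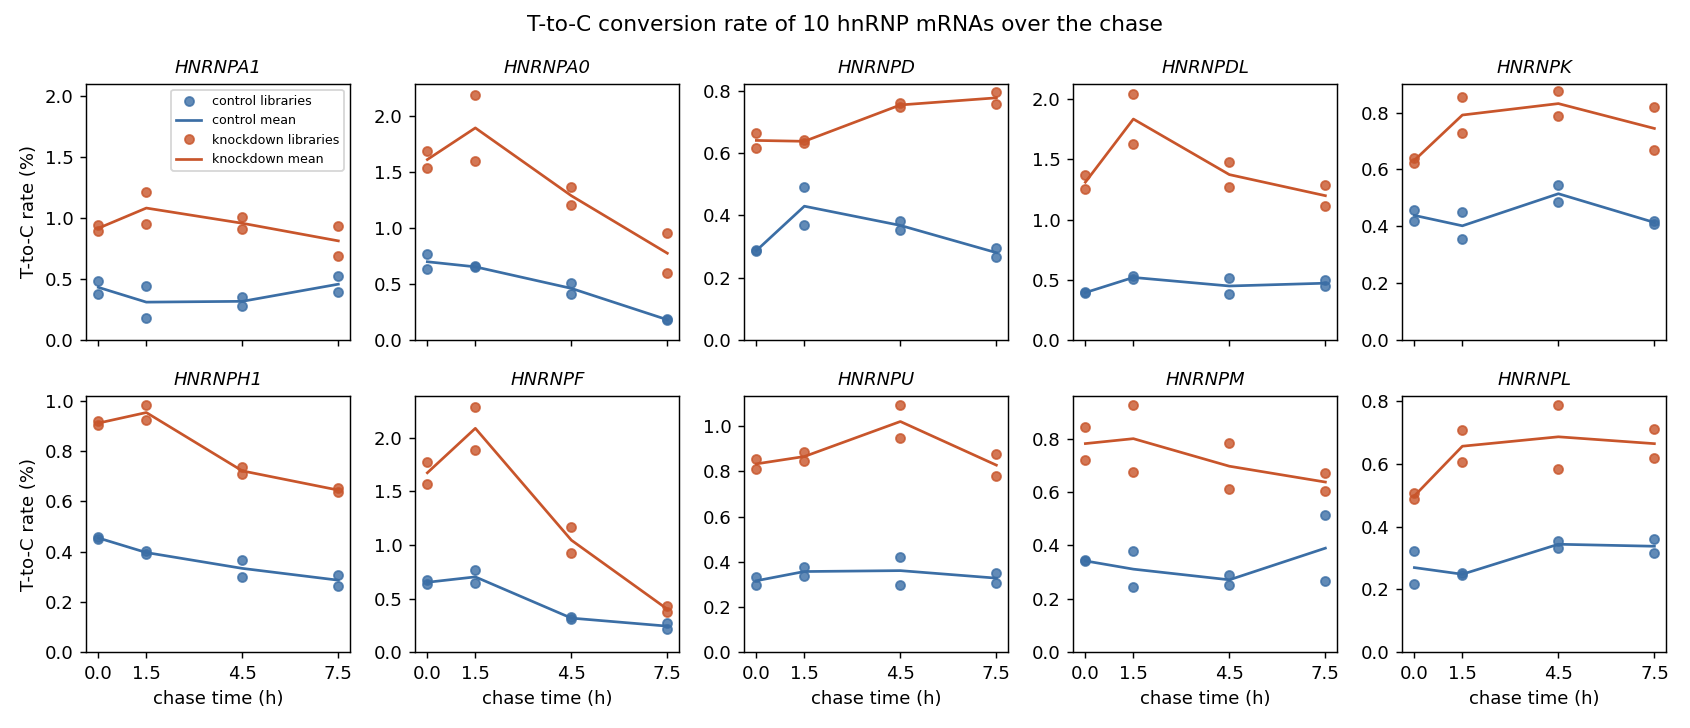
T-to-C conversion rate in percent (vertical axis, scaled per gene) against chase time in hours (horizontal axis) for each of the 10 genes; points are single libraries, 2 per group, and lines join group means. Knockdown libraries lie above control libraries at all 4 times, and HNRNPF and HNRNPA0 decline in both genotypes.

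HNRNPF encodes a protein with quasi-RNA recognition motifs that binds G-rich RNA and regulates splicing and polyadenylation. The gene (ENSG00000169813) lies on chromosome 10 from 43385617 to 43409166. In control its rates were 0.634% and 0.67% before the chase, 0.642% and 0.763% after 1.5 h, 0.326% and 0.31% after 4.5 h, and 0.27% and 0.217% after 7.5 h. Knockdown libraries read 1.78% and 1.57%, 2.29% and 1.89%, 0.925% and 1.17%, and 0.429% and 0.374% in the same order. Both late times lay below both early times in each genotype, without overlap. The slope was −0.19 log2 per hour in control (SE 0.0368, limma adjusted p = 6.5e-04) and −0.28 in knockdown (SE 0.0368, adjusted p = 2.1e-05). These slopes correspond to halving times of 5.15 h and 3.57 h, each for the rate plus the pseudocount of 0.05 percentage points, which lengthens them. The means were highest at 1.5 h in both genotypes, a step that was not called. A line fitted from before the chase thus does not describe the later fall alone.

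HNRNPA0, a small relative of HNRNPA1 that binds AU-rich RNA, had the lowest control slope of the members. The gene (ENSG00000177733, chromosome 5 from 137745651 to 137754376) also had the lowest CPM among them, 2.83. Control rates were 0.765% and 0.633% before the chase, 0.659% and 0.649% after 1.5 h, 0.411% and 0.512% after 4.5 h, and 0.188% and 0.175% after 7.5 h. Knockdown rates were 1.54% and 1.68%, 1.6% and 2.19%, 1.37% and 1.21%, and 0.595% and 0.955%. The 7.5 h libraries were the lowest of each genotype. Its slope was −0.22 log2 per hour in control (SE 0.0581, limma adjusted p = 0.00624) and −0.15 in knockdown (SE 0.0581, adjusted p = 0.045). The knockdown call ended on leaving out any of 10 of the 16 libraries. These were replicate 1 of control at 0 h, both control libraries at 1.5 h, replicate 2 of knockdown at 4.5 h, and both knockdown libraries at 0, 1.5 and 7.5 h. Over all single-library omissions the slope ranged from −0.17 to −0.11, with adjusted p up to 0.242. The call also ended at pseudocount 0.01 (adjusted p = 0.0639), with no CPM minimum (0.112), from 1.5 h on (0.0864) and with the replicate block (0.0517).

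HNRNPH1, a close relative of HNRNPF that also binds G-rich tracts, had a shallower slope, a difference that was not tested. The gene (ENSG00000169045) lies on chromosome 5 from 179614178 to 179634784. Control rates were 0.45% and 0.459% before the chase, 0.389% and 0.403% after 1.5 h, 0.299% and 0.368% after 4.5 h, and 0.264% and 0.309% after 7.5 h. Knockdown rates were 0.902% and 0.92%, 0.922% and 0.983%, 0.707% and 0.734%, and 0.637% and 0.652%. Replicates lay close together, and both late times were below both early ones in each genotype. The slope was −0.08 log2 per hour in control (SE 0.0135, limma adjusted p = 3.4e-04) and −0.07 in knockdown (SE 0.0135, adjusted p = 4.6e-04), with halving times of 13 h and 13.8 h.

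Counted together, 3 of 10 members fell and 0 rose in control, where 34.4% of tested genes fell and 3.45% rose. In knockdown 3 fell, HNRNPA0 with the limits given above, and 0 rose, against 37.9% and 4.06%. The members' median slope was 0.00 log2 per hour in control and −0.04 in knockdown, beside −0.11 and −0.13 for all tested genes. HNRNPL had the highest slope in control (0.05, SE 0.0229, limma adjusted p = 0.086), which passed without control 0 h replicate 1 (0.07, adjusted p = 0.0299).

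**Figure D2:**
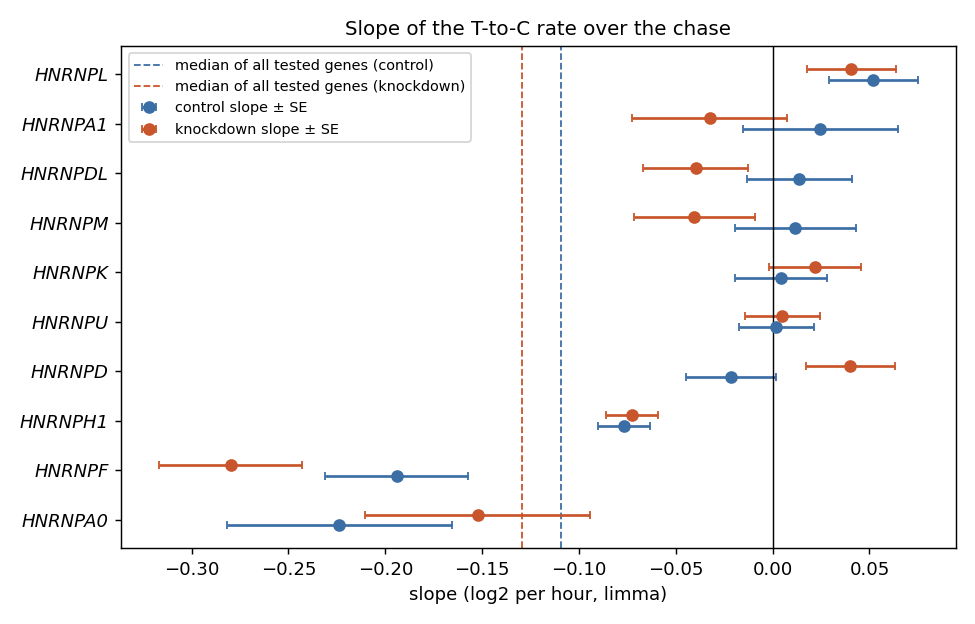
Slope of log2(rate in percent + 0.05) per hour of chase (horizontal axis) for each gene, with SE bars, in control and in knockdown; dashed lines are the medians of all tested genes, −0.11 and −0.13. HNRNPF and HNRNPA0 lie to the left of both lines and the other 8 genes to the right.

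Relative to the common fall of all genes, the rates of most members rose. For this comparison each library was centred on its own median log2 rate, which removed −0.14 log2 per hour from each control slope and −0.15 from each knockdown slope. In control 8 of 10 members rose and 0 fell after centring, where 17.6% of tested genes rose and 9.46% fell. The 8 were HNRNPL, HNRNPA1, HNRNPDL, HNRNPM, HNRNPK, HNRNPU, HNRNPD and HNRNPH1, and each of these calls held without any single library. Among tested genes their centred slopes stood from the 57th (HNRNPH1) to the 84.4th percentile (HNRNPL), and the median over tested genes was 0.03. Their CPM ran from 78.1 to 1184, beside a median of 9.66 over tested genes. Whether this raised the share called was not tested. The centred slope of HNRNPL, a CA-repeat-binding splicing regulator, was 0.19 log2 per hour (SE 0.0239, limma adjusted p = 2.9e-05). That of HNRNPH1 was the smallest called, 0.06 (SE 0.0123, adjusted p = 0.00201), and that of HNRNPF was −0.06 (SE 0.0342, adjusted p = 0.223).

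In knockdown the same 8 members rose after centring and HNRNPF fell, where 17.7% of tested genes rose and 8.62% fell. Among tested genes the 8 stood from the 61.6th (HNRNPH1) to the 82.4th percentile (HNRNPL). HNRNPF was at −0.13 log2 per hour (SE 0.0342, limma adjusted p = 0.00973). This call ended without knockdown 7.5 h replicate 1 (−0.12, adjusted p = 0.0566) or replicate 2 (−0.10, adjusted p = 0.0843). HNRNPA1 (0.12, adjusted p = 0.0341) lost its call when replicate 1 (0.11, adjusted p = 0.0914) or 2 (0.11, 0.101) of knockdown at 0 h was left out, and likewise replicate 2 at 1.5 h (0.11, 0.0573) or at 7.5 h (0.10, 0.134). It also lost it at pseudocount 0.01 (adjusted p = 0.0545), without the variance trend (0.0554), with no CPM minimum (0.315), from 1.5 h on (0.294) and when centred on genes with a CPM of at least 20 (0.0786). HNRNPM (0.11, adjusted p = 0.0117) lost its call without knockdown 7.5 h replicate 2 (0.10, adjusted p = 0.0575). With no CPM minimum the calls of HNRNPM (limma adjusted p = 0.223), HNRNPDL (0.151), HNRNPH1 (0.278) and HNRNPF (0.247) also ended. With the 0 h libraries left out, 7 of the 8 still rose in control but 5 in knockdown. There HNRNPM (0.14) and HNRNPDL (0.194) lost their calls as well as HNRNPA1.

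HNRNPL (ENSG00000104824, chromosome 19 from 38836388 to 38852347) had the highest centred slope in control, and in knockdown its 0.19 log2 per hour equalled that of HNRNPD to 2 decimals. Its control rates were 0.321% and 0.218% before the chase, 0.252% and 0.245% after 1.5 h, 0.332% and 0.356% after 4.5 h, and 0.36% and 0.315% after 7.5 h. Its knockdown rates were 0.508% and 0.488%, 0.708% and 0.605%, 0.788% and 0.584%, and 0.71% and 0.619%. The 0 h libraries were the lowest of the knockdown series, and the control groups at 0 h and 7.5 h overlapped. A second protein-coding gene model, AC008982.1, overlaps HNRNPL on the same strand, with a CPM of 125 beside 441 for HNRNPL, so reads may be divided between them.

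HNRNPU, a DNA- and RNA-binding scaffold protein of the nuclear matrix, had nearly level rates. The gene (ENSG00000153187, chromosome 1 from 244840638 to 244864560) ranged from 0.299% to 0.423% over the 8 control libraries and from 0.779% to 1.09% over the 8 knockdown libraries. Its slopes were 0.00 log2 per hour in both (SE 0.0194). COX20 overlaps it on the opposite strand with a CPM of 191 beside 1059, and whether reads were counted by strand is not stated. HNRNPM, a splicing regulator that binds GU-rich RNA (ENSG00000099783, chromosome 19 from 8444767 to 8489114), ranged from 0.243% to 0.512% and from 0.602% to 0.926%. Its highest control value came from 7.5 h replicate 2, whose partner was at 0.267%. HNRNPA1, which packages nascent RNA and represses splice sites (ENSG00000135486, chromosome 12 from 54280193 to 54287088), ranged from 0.181% to 0.522% and from 0.69% to 1.22%. Its lowest control value was 1.5 h replicate 1, and its partner was at 0.441%. HNRNPA1 has 75 annotated pseudogene rows with a summed CPM of 5.93 beside 78.1 for the gene, so its rate is uncertain to the extent that reads were shared.

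The first comparison between genotypes asked whether rates differed over the whole chase. All 10 members were higher in knockdown, where 69.6% of tested genes were higher and 0.172% lower, so a higher rate was also the majority result over all genes. Both knockdown libraries lay above both control libraries at all 4 times for each member. At each time taken alone, this held for 71.1%, 74.3%, 68.2% and 58.9% of tested genes at 0, 1.5, 4.5 and 7.5 h. The share of tested genes for which it held at all 4 times was not counted. The members' median effect was 1.15 log2, beside 1.02 for all tested genes. Apart from HNRNPA0 (2.83), the CPM of the members ran from 61 to 1184, beside a median of 9.66 over tested genes. Whether this raised the shares called, here or at the single times below, was not tested. HNRNPDL had the largest effect, 1.53 log2 (SE 0.0872, n = 8 libraries per genotype, limma adjusted p = 2.1e-09), and HNRNPK the smallest, 0.70 (SE 0.0824, adjusted p = 3.2e-06). The remaining 8 lay between 0.95 and 1.45.

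**Figure D3:**
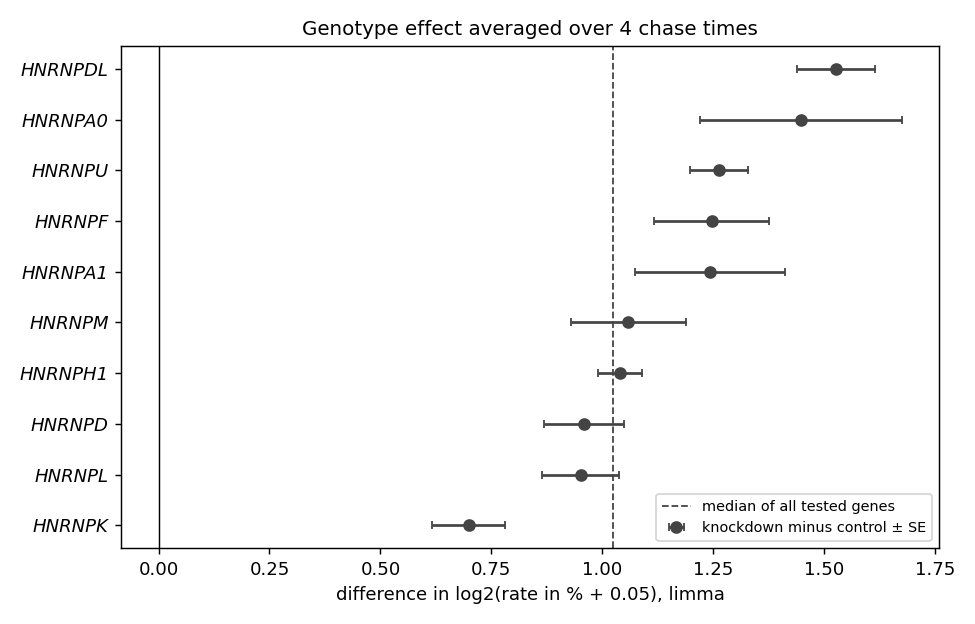
Knockdown minus control difference in log2(rate in percent + 0.05), averaged over 4 times (horizontal axis), for each gene with SE bars; the dashed line is the median of all tested genes, 1.02. HNRNPDL lies highest at 1.53 and HNRNPK lowest at 0.70.

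HNRNPDL and HNRNPK were the members whose genotype effect was called different from the shift common to all genes. After centring, which took 1.05 log2 from each genotype effect, HNRNPDL was higher (0.48, SE 0.0793, limma adjusted p = 0.00189) and HNRNPK lower (−0.35, SE 0.0829, adjusted p = 0.0206). Among tested genes 1.45% were higher and 4.59% lower. In size of effect HNRNPDL stood at the 89.9th percentile of tested genes and HNRNPK at the 24.4th. HNRNPA0 stood at the 86.9th with a wider spread and was not called (0.40, SE 0.231, limma adjusted p = 0.376). The calls of HNRNPDL and HNRNPK held without any single library. HNRNPU (0.21, adjusted p = 0.065) passed only without control 1.5 h replicate 1 (0.24, adjusted p = 0.0469) or control 4.5 h replicate 2 (0.24, adjusted p = 0.0475). Without the CPM minimum the centring point itself moved, and HNRNPDL turned to −0.21 (adjusted p = 0.501); without the variance trend HNRNPK missed the threshold (adjusted p = 0.0671).

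HNRNPDL, a relative of HNRNPD that also binds AU-rich RNA, lies on chromosome 4 from 82422564 to 82430408 (ENSG00000152795). Its control rates were 0.401% and 0.388% before the chase, 0.53% and 0.51% after 1.5 h, 0.38% and 0.518% after 4.5 h, and 0.499% and 0.446% after 7.5 h. Its knockdown rates were 1.25% and 1.37%, 2.05% and 1.62%, 1.27% and 1.48%, and 1.11% and 1.29%. The ratio of knockdown to control means was 3.32, 3.53, 3.06 and 2.54 in the order of time, beside medians over genes of 2.09, 2.21, 2.18 and 1.97. The difference was thus present at the end of the pulse.

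HNRNPK, which binds C-rich RNA and DNA through KH domains, lies on chromosome 9 from 83968083 to 83980616 (ENSG00000165119). Its control rates were 0.419% and 0.458% before the chase, 0.354% and 0.449% after 1.5 h, 0.545% and 0.484% after 4.5 h, and 0.41% and 0.417% after 7.5 h. Its knockdown rates were 0.64% and 0.624%, 0.727% and 0.855%, 0.787% and 0.875%, and 0.819% and 0.669%. The ratio of means was 1.44, 1.97, 1.62 and 1.8 in the order of time, below the gene-wide median at each. Rows annotated as HNRNPK pseudogenes number 5, with a summed CPM of 5.03 beside 120 for the gene.

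At single times fewer genes passed. At 0 h 9 of 10 members were higher in knockdown, where 35.6% of tested genes were higher and 0.179% lower. The members' median was 1.06 log2, beside 1.01 over genes. HNRNPA0 did not pass (1.15, SE 0.475, limma adjusted p = 0.0779), but did at pseudocount 0.2 (0.0362) and without the variance trend (0.00989). Leaving out knockdown 0 h replicate 2 gave 6 members and 3414 genes called in either direction, against 5807 with all libraries. Without knockdown 0 h replicate 1 these were 7 and 3331, and without control 0 h replicate 1 they were 7 and 3777. At 7.5 h 8 were higher, where 33.5% of tested genes were higher and 0.308% lower. Their median was 0.97, beside 0.92. HNRNPA1 (0.76, adjusted p = 0.0758) and HNRNPM (0.70, adjusted p = 0.0581) did not pass. Both did with a CPM of at least 20 (limma adjusted p = 0.0404 and 0.0289). HNRNPM passed without control 7.5 h replicate 2 (1.11, adjusted p = 0.00861), and HNRNPA1 without either control 1.5 h library (0.76, adjusted p = 0.0231), which changes only the shared spread. Some calls rested on single libraries, leaving a group with 1 library that is assumed to vary like the others. At 0 h HNRNPA1 lost its call without control replicate 1 (0.85, adjusted p = 0.134) or knockdown replicate 1 (0.98, 0.102) or 2 (1.05, 0.0836). HNRNPM lost it without knockdown replicate 2 (0.97, 0.061), and HNRNPK without control replicate 1 (0.43, 0.14) or 2 (0.54, 0.0673) or knockdown replicate 1 (0.47, 0.12) or 2 (0.50, 0.0994). At 7.5 h HNRNPA0 lost it without knockdown replicate 2 (1.48, 0.0826), and HNRNPF without control replicate 2 (0.50, 0.111) or knockdown replicate 1 (0.54, 0.116). With no CPM minimum HNRNPK (adjusted p = 0.0673) and HNRNPA1 (0.0519) at 0 h and HNRNPF at 7.5 h (0.0544) also missed the threshold, as did HNRNPK at 0 h without the variance trend (0.085).

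Whether the slopes differed between genotypes was tested directly. No member passed, and 0% of the 16241 tested genes did by limma, while 1269 of them had an unadjusted p under 0.05 and 1 passed without the variance trend. The member with the smallest unadjusted p was HNRNPD, an AU-rich-element-binding protein also called AUF1, whose knockdown slope exceeded its control slope by 0.06 log2 per hour (95% interval −0.01 to 0.13, limma adjusted p = 0.702). HNRNPD (ENSG00000138668) lies on chromosome 4 from 82352498 to 82374503. Its knockdown pair read 0.666% and 0.615% before the chase, 0.642% and 0.634% after 1.5 h, 0.748% and 0.761% after 4.5 h, and 0.758% and 0.796% at its end, with no overlap between the first and last pairs. The control pair read 0.289% and 0.285% before it, 0.491% and 0.369% after 1.5 h, 0.383% and 0.353% after 4.5 h, and 0.265% and 0.296% at its end, where the first and last pairs overlapped. The difference for HNRNPF was −0.09 (95% interval −0.20 to 0.02, adjusted p = 0.739). The narrowest interval was that of HNRNPH1, −0.04 to 0.04. These intervals bound the difference for each gene and do not show that the slopes are alike.

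In the first step of the chase, from 0 h to 1.5 h, no member passed in either genotype. In control 0.0185% of tested genes rose and 0.0554% fell, and in knockdown 0.0493% rose and 0.00616% fell, while at an unadjusted p under 0.05 the numbers of genes were 2083 and 1572. The largest step in size was in HNRNPA1 in control, −0.51 log2 (SE 0.307, limma adjusted p = 0.532), where 1.5 h replicate 1 was the low library and the value without it was 0.04. The largest increase in control was in HNRNPD, which went from 0.287% ± 0.00296 to 0.43% ± 0.0863 (SD, n = 2), 0.50 log2 (SE 0.115, limma adjusted p = 0.118). In knockdown it was HNRNPDL, from 1.31% ± 0.0802 to 1.84% ± 0.298, 0.46 log2 (SE 0.164, adjusted p = 0.347). The median member step was −0.08 log2 in control and 0.21 in knockdown, beside −0.13 and −0.10 for all tested genes.

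Ratios between related genes within a library do not depend on a shift that multiplies all rates alike, but an added background would not cancel. They were taken after the values were seen, as a description. The rate of HNRNPF over that of HNRNPH1 in control, in the order of time, was 1.44 ± 0.0359, 1.77 ± 0.171, 0.968 ± 0.175 and 0.863 ± 0.226 (SD, n = 2). In knockdown it was 1.84 ± 0.185, 2.20 ± 0.396, 1.45 ± 0.197 and 0.624 ± 0.0696, so both means were highest at 1.5 h, where the knockdown libraries overlapped those at 0 h. HNRNPF thus started above HNRNPH1 in every 0 h library, and ended below it in both knockdown libraries at 7.5 h and in 1 of 2 control ones. HNRNPA0 over HNRNPA1 was 1.66 ± 0.516, 2.56 ± 1.53, 1.49 ± 0.453 and 0.407 ± 0.101 in control in the order of time. In knockdown it was 1.76 ± 0.176, 1.81 ± 0.704, 1.35 ± 0.215 and 0.942 ± 0.114. HNRNPDL over HNRNPD was 1.37 ± 0.0164, 1.23 ± 0.215, 1.23 ± 0.335 and 1.69 ± 0.263 in control. In knockdown it was 2.05 ± 0.241, 2.88 ± 0.441, 1.82 ± 0.177 and 1.54 ± 0.104, where libraries of the genotypes overlapped at 7.5 h and not before.

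**Figure D4:**
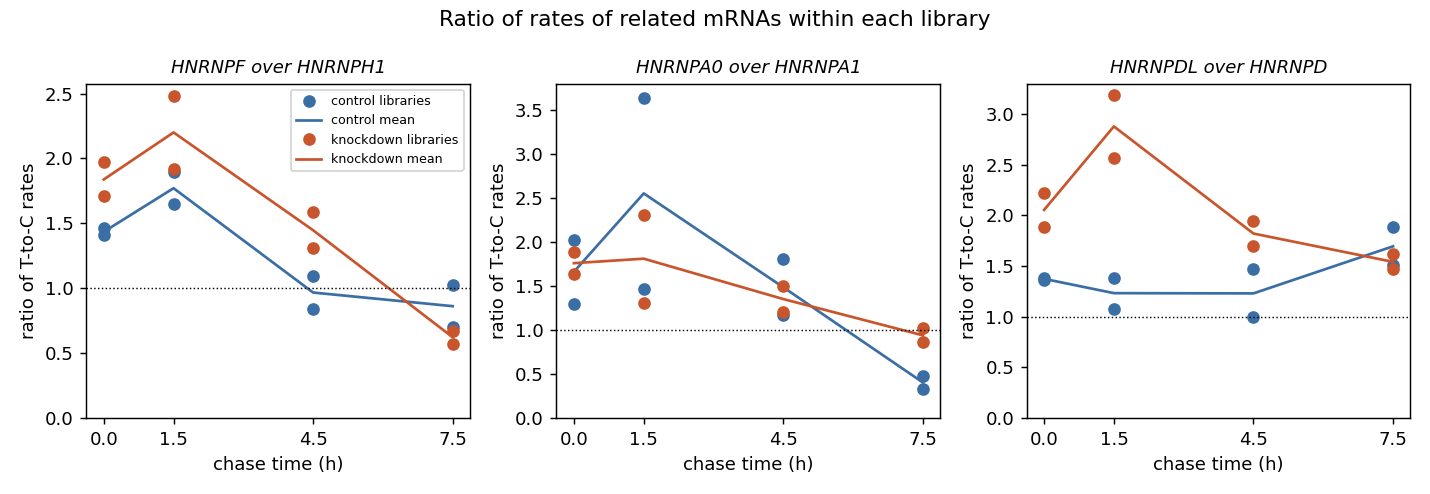
Ratio of T-to-C rates of related genes within each library (vertical axis) against chase time in hours (horizontal axis); points are libraries, lines join means, and the dotted line marks a ratio of 1. HNRNPF over HNRNPH1 goes from 1.44 at 0 h through 1.77 to 0.863 in control and from 1.84 through 2.20 to 0.624 in knockdown.

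Gene structure, which played no part in choosing the members, also set HNRNPF and HNRNPA0 apart. In the principal GENCODE 29 transcripts each has its coding sequence in 1 exon, while the other 8 have 7 to 15 coding exons. They are also the members with 0 annotated NMD transcripts, and HNRNPA0 has only 1 annotated transcript in all. The others have between 1 (HNRNPA1, HNRNPK, HNRNPM, HNRNPL) and 9 (HNRNPU), with 4 each for HNRNPDL and HNRNPH1 and 2 for HNRNPD. HNRNPH1, which also lost label, has 12 coding exons and does not share these traits. The median over 19677 protein-coding genes was 7 coding exons, and the shares of genes with 1 coding exon or 0 NMD transcripts were not counted. After the stop codon HNRNPA0 has 7498 bases with 22 ATTTA matches and HNRNPF 1020 bases with 3. HNRNPU has 11 matches in 4150 bases with level rates. In the first 300 bases after the stop codon, ATTTA (transcribed strand only) was present in HNRNPA0 and HNRNPH1, 36.6% of 13718 genes hold it there, and HNRNPM has only 256 such bases. These are annotations of the genes, and their part in the rates was not tested.

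Among 18 further genes of hnRNP proteins and their relatives, all of which passed the CPM minimum, 9 fell and 1 rose in control, where 34.4% and 3.45% of tested genes did. Their slopes had a median of −0.08 log2 per hour. In knockdown 10 fell and 1 rose (median −0.08), beside 37.9% and 4.06% of tested genes. HNRNPLL, a relative of HNRNPL, fell at −0.29 (SE 0.0372, limma adjusted p = 2.4e-05), from 0.976% ± 0.121 at 0 h to 0.171% ± 0.0259 at 7.5 h in control (SD, n = 2). TAF15, an RNA-binding protein, fell at −0.17, SYNCRIP, or hnRNP Q, at −0.15 and HNRNPC, which binds U-rich tracts, at −0.15. The gene that rose, named after its values were seen, was HNRNPA2B1, a relative of HNRNPA1, at 0.06 (SE 0.0207, adjusted p = 0.0306) in control and 0.09 (adjusted p = 0.00184) in knockdown.

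After centring, 6 of the 18 rose and 1 fell in control, HNRNPLL at −0.15 log2 per hour (limma adjusted p = 0.00556), beside 17.6% and 9.46% of tested genes. In knockdown 6 rose and 1 fell, beside 17.7% and 8.62%. There HNRNPLL was at −0.03 (adjusted p = 0.598), and the gene that fell was TAF15 (−0.13, adjusted p = 0.00182). Whether this share differs from that of the members was not tested. For the genotype effect 17 of the 18 were higher, beside 69.6% of tested genes, with a median of 1.12 log2, and 1 was higher after centring. That gene was PCBP1, or hnRNP E1, a C-rich-RNA-binding KH protein (centred 0.44, SE 0.111, limma adjusted p = 0.0298). SYNCRIP (0.22, adjusted p = 0.0628), HNRNPA3 (0.29, 0.168) and RALY (0.27, 0.224) did not pass. Of 14 SR splicing factors, proteins that often oppose hnRNPs at splice sites, 11 fell and 0 rose in control (median slope −0.13), beside 34.4% of tested genes falling. In knockdown 8 fell and 0 rose (median −0.12), beside 37.9%. Their median genotype effect was 1.19.

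The centred profiles of the members over 16 libraries resembled each other apart from those of HNRNPF and HNRNPA0. Pearson's r of each gene with the mean of the other members ran from 0.747 for HNRNPA1 to 0.921 for HNRNPU among 8 genes, but was −0.61 for HNRNPF and −0.23 for HNRNPA0. The genes most like the members' mean profile, among those at or above the median CPM of 9.66, were CLIC1 (r = 0.986), HSP90AA1 (0.986), HMGB1P5 (0.984), RPS15P4 (0.983) and CALM2 (0.983). These correlations share the same libraries and their time course, and are descriptions.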

How the data were processed

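T-to-C rates were measured by SLAM-seq of polyadenylated RNA from 16 THP-1 libraries. The deposited values are a fraction from 0 to 1 per gene and library, read from the assay and the values as converted over sequenced T bases, and are given here in percent. The authors also deposited 1 CPM column, per the file headers, with no library named, and a gene length, not used. CASAVA, HISAT2 2.1.0 and hg38 are named in the submitters' processing notes; how conversions were called, the annotation and the strand setting are not stated there or in the labels. The S columns were assigned to knockdown because the C columns match control and the labels hold no other genotype.

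Genes needed a CPM of 1 or more and 1 or more libraries with a nonzero rate, which left 16241. Their log2 rates (percent plus 0.05) went into limma 3.58.1 (R 4.3.3). Variances followed a trend in log2(CPM + 0.01), with Benjamini-Hochberg adjustment over all genes at 0.05. The genotype effect had time as a factor; slopes had an intercept and a slope per genotype; single times came from group means. No replicate block was used. Depth per rate is unknown. Members and lists were chosen with earlier results of these data known. All 10 members are named; the rest were named by smallest p or likeness. Annotation was GENCODE 29.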

Additional observations from a re-analysis of the deposited data

How the results depend on the processing

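Alternatives were other pseudocounts (0.01 and 0.2), no CPM minimum or one of 20, centring on genes with a CPM of at least 20, no variance trend, slopes from 1.5 h on, a replicate block and leaving out each library. The genotype effect called all 10 members higher under each alternative run for it (pseudocounts, CPM minimum, trend, block and omissions), except with a CPM of at least 20, where HNRNPA0 was not tested and the other 9 were higher. Depth per rate is unknown, so no value could be weighted by it.

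Counts over all genes moved as follows. With a CPM of at least 20, where fewer genes were tested, the genotype effect called 5164 genes (11325 as reported), the control slope 3061 (6148) and the knockdown slope 3435 (6810). Slopes from 1.5 h on, with fewer libraries, called 3074 in control and 4007 in knockdown, and after centring 1782 (4388) and 1647 (4267). The centred genotype effect called 1668 genes at pseudocount 0.2 and 5781 with no CPM minimum (982), and the centred knockdown slope 1653 with no minimum. The slope difference called 1 gene without the variance trend (0). The step to 1.5 h in control (12) called 29 at pseudocount 0.01, 57 at 0.2, 36 with no minimum, 116 at 20, 2 without the trend and 2 with the block. In knockdown (9) it called 120 at pseudocount 0.2, 139 with no minimum, 73 at 20 and 3 without the trend. Apart from where a change in genes or libraries is named, the cause was not tested.

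Among members, with no CPM minimum the centred genotype effect called 0 higher (1) and 5 lower (1), and without the trend 0 lower. The centred knockdown slope called 4 higher with no minimum and 5 from 1.5 h on (8), and 0 lower with no minimum (1). With no minimum the centred genotype effect turned to −0.29 for HNRNPA0, −0.49 for HNRNPA1, −0.21 for HNRNPDL, −0.49 for HNRNPF, −0.68 for HNRNPM and −0.47 for HNRNPU. For HNRNPM it was also −0.021 at pseudocount 0.2 and −0.014 with a CPM of at least 20 or centring on such genes. Centred slopes with no minimum turned to 0.047 for HNRNPA0 and 0.076 for HNRNPF in control, and to 0.0055 for HNRNPA0 in knockdown. From 1.5 h on, slopes turned to −0.021 for HNRNPDL and −0.018 for HNRNPU in control and to −0.014 for HNRNPK and −0.011 for HNRNPU in knockdown, while HNRNPD in control (−0.088, adjusted p = 0.0141) and HNRNPDL in knockdown (−0.098, adjusted p = 0.0325) became falling calls. Slope differences turned to −0.020 for HNRNPH1 and −0.022 for HNRNPK, and to −0.0054 for HNRNPH1 at pseudocount 0.2.

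Leaving out 1 library gave 3331 to 6430 genes for the genotype effect at 0 h (5807), 0 to 2 for the slope difference, 2 to 18 for the step to 1.5 h in control and 0 to 11 in knockdown. Members ranged from 1 to 2 higher in the centred genotype effect, 0 to 1 higher in the control slope and 0 to 1 lower in the centred knockdown slope. Uncalled values that changed sign ranged as follows. The centred genotype effect ran from −0.035 to 0.016 for HNRNPH1 and −0.051 to 0.11 for HNRNPM. The control slope ran from −0.012 to 0.058 for HNRNPA1, −0.0046 to 0.015 for HNRNPK, −0.044 to 0.039 for HNRNPM and −0.0087 to 0.016 for HNRNPU. The knockdown slope of HNRNPU ran from −0.0020 to 0.024, and the centred one of HNRNPA0 from −0.021 to 0.043. Slope differences ran from −0.0035 to 0.016 for HNRNPH1, −0.031 to 0.0057 for HNRNPL, −0.079 to 0.0035 for HNRNPM and −0.011 to 0.022 for HNRNPU. The step to 1.5 h in control ran from −0.21 to 0.042 for HNRNPA0, −1.05 to 0.035 for HNRNPA1, −0.021 to 0.21 for HNRNPF, −0.27 to 0.033 for HNRNPK, −0.31 to 0.15 for HNRNPL and −0.42 to 0.13 for HNRNPM. In knockdown it ran from −0.0092 to 0.43 for HNRNPA0, −0.058 to 0.048 for HNRNPD and −0.20 to 0.24 for HNRNPM.

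Replicate numbers share only a number: over 28 pairs of groups, deviations of same-numbered libraries correlated at −0.024 to 0.040. With the replicate block the knockdown slope of HNRNPA0 had a limma adjusted p of 0.0517 (0.045 without), leaving 2 members falling, and no other member call changed.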

Other observations

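Several members share their locus with another annotated gene whose row also held rates. COX20, a cytochrome oxidase assembly factor on the strand opposite to HNRNPU, had a CPM of 191 and mean rates of 0.249% in control and 0.463% in knockdown over 8 libraries each. AC078778.2, on the same strand as HNRNPA1, had a CPM of 23.5 and mean rates of 0.395% and 0.912%. AC136469.2, opposite to HNRNPM, had a CPM of 5.03 and mean rates of 0.0997% and 0.0981%, with no excess in knockdown. Whether reads were counted by strand is not given in the sources used here.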
